A study of Mus musculus with 34 samples.

Results

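The circadian clock genes described here were 10 genes, namely Clock, Arntl, Per1, Per2, Per3, Cry1, Cry2, Nr1d1, Nr1d2 and Dbp, out of 21938 protein-coding genes of the mouse. They were taken by name, and for each gene the trimethylation of lysine 4 of histone H3 (H3K4me3), a mark of promoters in use, was averaged from 1000 bp upstream to 1000 bp downstream of the annotated gene 5′ end (GENCODE M21, mm10). H3K4me3 was profiled by CUT&RUN, in which an antibody guides a protein A-MNase fusion to the marked nucleosomes and the released DNA is sequenced. There were 2 libraries of wild-type mice and 2 libraries of ApcMin/+ mice, all on the C57BL/6J background, all from villi cells scraped from the small intestine and none treated. The ApcMin/+ mice carry 1 mutant copy of the tumour suppressor Apc in all their cells, and the tissue was taken while it still looked normal. The sample labels give the age as 5 weeks, the series text as 5 to 6 weeks and the methods as 6 weeks. The mice lived under a light-dark cycle, and the hour at which each mouse was killed is not given in the sources used here.

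The mammalian clock is a feedback loop of transcription. CLOCK and BMAL1 (the product of Arntl) bind E-boxes as a dimer and activate Per, Cry, Nr1d1, Nr1d2 and Dbp, PER and CRY proteins then repress this dimer, and the receptors REV-ERBα and REV-ERBβ (from Nr1d1 and Nr1d2) repress Arntl through ROR elements, while DBP activates genes with a D-box. In the intestine the clock is known to time cell renewal, motility and nutrient uptake, and the output genes of the loop, Dbp and the Rev-erbs above all, are among those with the deepest daily rhythms in many tissues.

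Values of the 4 libraries are given throughout in the order wild-type replicate 1, wild-type replicate 2, ApcMin/+ replicate 1, ApcMin/+ replicate 2, called the library order here. The libraries were unequal, and this touches every value below. Their depths in library order were 1430000, 4790000, 3700000 and 5470000 tags. ApcMin/+ replicate 1 stood apart, with 43.3% of its signal in enriched regions against 11.9% to 22.6% in the others, and with an average over all promoters of 6.85 against 1.76 to 2.59. Wild-type replicate 1 was the least precise, since a clock promoter rested on only 6 to 30 fragments there. Of 11 enterocyte markers 9 had a mean promoter signal of at least 2, which was the minimum for testing, whereas 0 of 8 secretory, 0 of 6 leukocyte and 0 of 8 stromal markers did. Of 5 crypt and cycling markers Mki67 and Top2a passed this minimum, and Lgr5 and Olfm4, which define stem cells, had means of 1.22 and 0.249. Summed over each list, in library order, the enterocyte markers gave 63.2, 37.4, 181 and 48.1, the crypt and cycling markers 12.2, 10.3, 42.4 and 16.7, the secretory markers 10.2, 4.53, 10.5 and 9.29, the leukocyte markers 3.96, 3.73, 6.81 and 4.49, and the stromal markers 1.38, 4.67, 5.50 and 5.25. The part that the makeup of the scraped cells played in the results was not tested. In bulk tissue, fewer cells of a type and less of the mark per cell cannot be told apart.

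The loop is known to act through short sequence motifs, and the matches to them in the clock windows are shown here so that they can be set beside the H3K4me3. The E-box was searched as CACGTG, the D-box as TTATGTAA and TTATGCAA, the core of the ROR element as TAGGTCA and TGGGTCA, and the cAMP response element as TGACGTCA, on both strands, with no overlap between matches of different motifs at these promoters. A match is a description of the sequence, not evidence of binding. The D-box was found in 4 of 10 clock windows (Per2, Per3, Nr1d2 and Dbp), against 8.98% of the 9930 tested promoters over the same length. Per3 held 3 of them, and 2 or more were found in 0.493% of the tested promoters. The 250 bases upstream of Per3, with both D-boxes that lie nearest to its start in capitals, and the same stretch of Cry1, with its E-box in capitals, read as follows (RefSeq, GRCm38.p6, 5′ to 3′ on the gene's strand, which is the minus strand for both, at chr4:151044666-151044915 and chr10:85185055-85185304).
Per3: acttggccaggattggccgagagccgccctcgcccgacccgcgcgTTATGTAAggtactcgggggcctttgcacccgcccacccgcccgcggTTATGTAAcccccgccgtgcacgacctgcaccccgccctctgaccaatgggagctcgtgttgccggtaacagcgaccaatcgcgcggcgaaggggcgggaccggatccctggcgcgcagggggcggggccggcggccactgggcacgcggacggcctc
Cry1: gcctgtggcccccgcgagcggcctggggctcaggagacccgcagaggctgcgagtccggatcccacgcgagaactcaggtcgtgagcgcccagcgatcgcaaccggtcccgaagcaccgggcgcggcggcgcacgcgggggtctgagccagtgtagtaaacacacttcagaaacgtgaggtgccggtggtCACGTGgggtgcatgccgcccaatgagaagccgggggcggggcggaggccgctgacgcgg

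The perfect E-box was found in 4 of 10 clock windows (Per1, Cry1, Nr1d1 and Nr1d2), close to its share of 33.9% among the tested promoters, and the ROR core in 3 of 10 (Clock, Arntl and Dbp), against 33.4%. The cAMP response element was found in 0 of 10, against 5.99%, and the window of Cry2 held none of the motifs searched. For the repressor Per1, the RefSeq starts found lie 3732 and 4935 bp downstream of the gene 5′ end. The promoter sequence of the latter held none of the motifs searched. The 250 bases before the internal start at 3732 bp hold an E-box and a D-box, in capitals (chr11:69098699-69098948, plus strand).
Per1 internal start: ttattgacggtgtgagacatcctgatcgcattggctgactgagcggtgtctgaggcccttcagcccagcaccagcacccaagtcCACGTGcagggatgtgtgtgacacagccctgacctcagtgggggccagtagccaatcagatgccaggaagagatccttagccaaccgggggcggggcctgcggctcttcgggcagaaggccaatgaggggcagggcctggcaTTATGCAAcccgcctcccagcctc

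The short stretches below show the other matches in the windows that fell inside the H3K4me3 block of the gene (defined with the widths below), with the match in capitals, on the strand of the gene, and its distance from the gene 5′ end. The downstream matches of Nr1d2 and Dbp lie in introns, the ROR core of Arntl lies in an untranslated exon, and the rest lie upstream of the gene. The D-box of Nr1d2 is a match on the opposite strand and so appears as its reverse complement.
Per1 E-box, 334 bp upstream (chr11:69094871-69094900): tgagccagcctgCACGTGttccctacagct
Per1 E-box, 150 bp upstream (chr11:69095055-69095084): cgcccccgccctCACGTGgctctatcacta
Nr1d1 E-box, 367 bp upstream (chr11:98775683-98775712, minus strand): cagttctccaatCACGTGaagctctcacgt
Nr1d2 E-box, 449 bp downstream (chr14:18238661-18238690, minus strand): tgccgcactggcCACGTGcacggtgtgttt
Nr1d2 E-box, 552 bp downstream (chr14:18238558-18238587, minus strand): ggcgggcggagaCACGTGaggccgcggggc
Nr1d2 E-box, 597 bp downstream (chr14:18238513-18238542, minus strand): gggccggaggaaCACGTGggggcggtgccg
Nr1d2 D-box, 517 bp downstream (chr14:18238592-18238621, minus strand): gtgacgcagcaTTACATAAtgcgagctggg
Per2 D-box, 125 bp upstream (chr1:91459431-91459460, minus strand): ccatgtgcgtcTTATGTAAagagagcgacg
Per3 D-box, 670 bp upstream (chr4:151045317-151045346, minus strand): ggtagagacagTTATGTAAaaggagcatcc
Dbp D-box, 777 bp upstream (chr7:45704300-45704329): tccatgtacctTTATGCAAaccagcctatt
Dbp ROR core, 234 bp upstream (chr7:45704843-45704871): ttggcccgaagTGGGTCAcggtcccgcct
Dbp ROR core, 189 bp upstream (chr7:45704888-45704916): ttggccaaataTAGGTCAgtgtcccgcct
Dbp ROR core, 769 bp downstream (chr7:45705846-45705874): ctagtcttcatTAGGTCActtaggtcttc
Arntl ROR core, 76 bp downstream (chr7:113207530-113207558): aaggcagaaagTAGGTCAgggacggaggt

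The H3K4me3 signal over these letters differed from gene to gene. Within 100 bp on each side of the E-box of Cry1, which lies 50 bp upstream, the mean signal was 20.9, 5.0, 40.0 and 7.36 in library order. At the Per3 D-box 205 bp upstream it was 25.7, 6.53, 18.9 and 7.35, while at the D-box 670 bp upstream it was 0.659, 0.794, 3.32 and 0.527, so the signal at the outer Per3 match was the lower in every library. At the Dbp ROR core 189 bp upstream the signal was 19, 4.24, 3.16 and 5.20, and at the one 234 bp upstream it was 17.4, 4.72, 2.58 and 4.14. Wild-type replicate 1 was the highest at both, but these stretches overlap for most of their length and are not separate measurements. In that library the whole 1000 bp window of Dbp rested on only 17 fragments. At the D-box of Nr1d2 the signal was 6.54, 3.27, 6.35 and 5.42. The ROR core of Clock, 763 bp downstream of the gene 5′ end and in an intron, had a signal of 0 in all 4 libraries.

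All 10 clock promoters carried H3K4me3, and all passed the minimum mean signal of 2 that left 9930 of 21938 promoters for testing. The signal is coverage per base, scaled to 10000000 tags, so that levels of different genes are per length. The highest mean over the 4 libraries was that of Arntl, which encodes the activator BMAL1, with 11.1. It was followed by Nr1d1 with 9.20, Cry1 with 8.25, Nr1d2 with 7.27, Per1 with 6.40, Per2 with 5.29, Cry2 with 4.98, Dbp with 4.79, Per3 with 4.72 and Clock with 3.92. Neighbours in this order differed by less than the larger SD within a group, so the order is a description. It also depended on ApcMin/+ replicate 1. Without that library Nr1d1 ranked 1, Arntl 2, Per3 5 and Dbp 6, while Per1 ranked 8, Per2 9 and Clock 10. In every library either Arntl or the Rev-erb genes ranked first among the clock genes, and Clock ranked between 7 and 10.

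Of the activators, Arntl had signals of 9.0, 3.84, 25.1 and 6.58 in library order. Its promoter stood at percentiles 95.7, 85.9, 95.3 and 94.3 of all protein-coding promoters of the same libraries, so it was among the strongest in 3 of the 4. Clock, whose product pairs with BMAL1, had signals of 1.93, 2.0, 9.14 and 2.60 at percentiles 57.5, 63.8, 67.8 and 62.2, and both ApcMin/+ libraries lay above both wild-type libraries. Only 6 fragments stood behind the value of Clock in wild-type replicate 1, where the 95% Poisson interval of the signal ran from 0.769 to 4.56.

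Of the repressors, Per1 had signals of 5.07, 2.54, 13.8 and 4.19, and Per2 of 4.18, 2.74, 10.1 and 4.19. The groups overlapped at Per1, and at Per2 ApcMin/+ replicate 2 exceeded wild-type replicate 1 by a margin far within counting error. Per3, the member of the family that is least needed for rhythm, had signals of 6.89, 3.23, 5.63 and 3.13, so that ApcMin/+ replicate 1 lay below wild-type replicate 1 although its average promoter was higher. Cry1 had signals of 5.93, 3.55, 19.6 and 3.90, and Cry2 of 4.88, 3.16, 8.02 and 3.85. Both cryptochromes repress CLOCK and BMAL1, and at both the wild-type and ApcMin/+ libraries overlapped.

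Of the receptors that repress Arntl, Nr1d1 had signals of 10.4 and 4.80 in the wild type and of 15.2 and 6.43 in ApcMin/+, at percentiles 97.7, 93.5, 81.8 and 93.7. Nr1d2 had signals of 7.64, 5.11, 12.0 and 4.29, at percentiles 92.1, 95.1, 74.7 and 78.7, so that it stood higher among the promoters of both wild-type libraries. Dbp, the D-box activator, had signals of 6.10, 3.36, 7.21 and 2.49, at percentiles 86.6, 81.0, 63.3 and 61.2. Per3 moved down the ranking likewise, from percentiles 89.8 and 79.3 in the wild type to 59.9 and 67.2 in ApcMin/+.

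**Figure D1:**
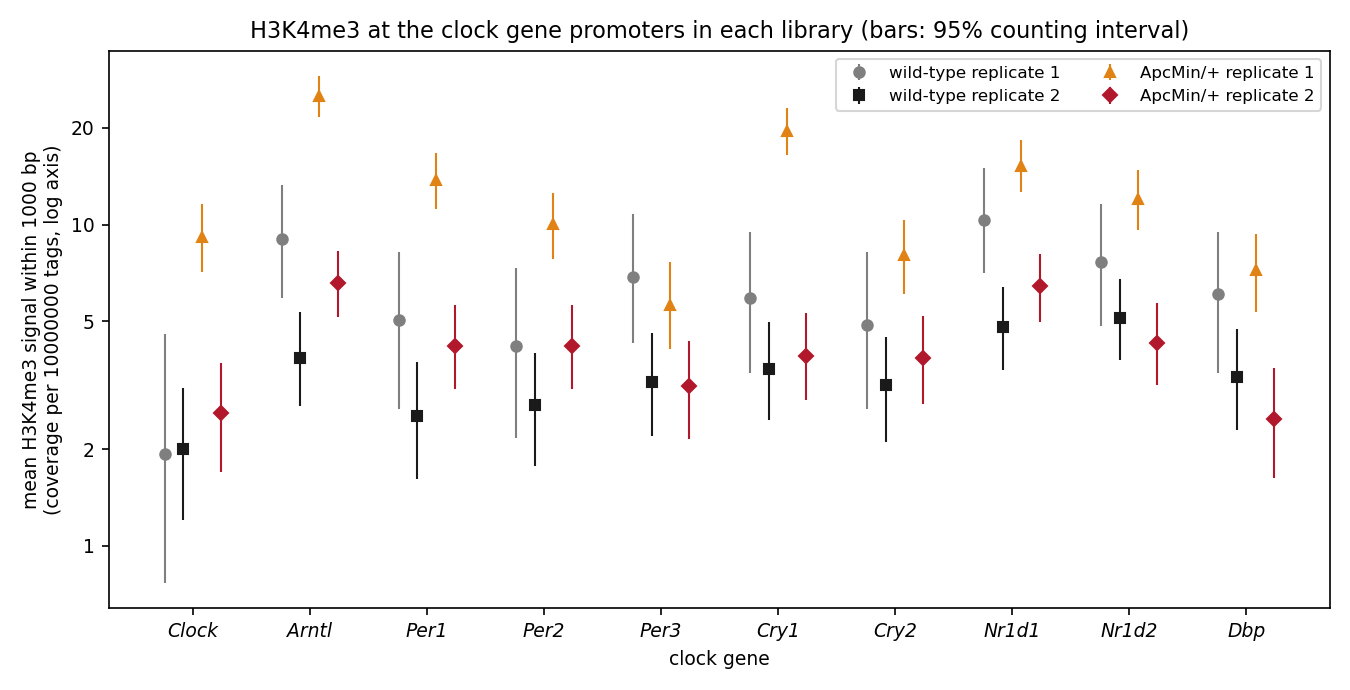
Mean H3K4me3 signal (log axis, coverage per 10000000 tags) within 1000 bp of each clock gene 5′ end in the 4 libraries, with 95% Poisson counting intervals. ApcMin/+ replicate 1 is the highest at 9 of the 10 genes, the exception being Per3, where wild-type replicate 1 has 6.89 and ApcMin/+ replicate 1 has 5.63.

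The mark also differed in shape. A block of H3K4me3 was taken as the stretch around the gene 5′ end at which the mean of the 4 tracks exceeded 5 times the genome-wide mean, and its median width over the tested promoters was 2000 bp (interquartile range 1500 to 2800 bp). The blocks of Dbp, Nr1d1 and Arntl were 4800, 4400 and 4200 bp wide, at percentiles 94.9, 93.3 and 92.2. Those of Cry1 and Cry2 spanned 3500 and 3000 bp, those of Per1, Per2 and Per3 2600, 2500 and 2100 bp, and those of Nr1d2 and Clock only 1800 and 1600 bp. The Dbp block ran from 1187 bp upstream to 3612 bp downstream and covered 70.6% of this gene of 5116 bp, and that of Nr1d1 covered 51.8% of a gene of 7402 bp, whereas at the longer clock genes the block covered at most 14.1% of the gene, the value of Per1. The widths depended on the threshold. At 3 times the genome-wide mean the blocks of Dbp, Per2 and Clock measured 19700, 7100 and 2700 bp, and at 10 times the blocks of Dbp, Arntl, Per1 and Per3 measured 2900, 2200, 1400 and 1000 bp.

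The widths varied with the library. In the separate tracks the Dbp block measured 4500, 2600, 6100 and 6100 bp in library order, and that of Arntl 3900, 2100, 3700 and 2700 bp. The Nr1d1 block measured 4500, 5100, 3900 and 5800 bp, so the groups overlapped at Nr1d1 and Arntl. The Per2 block measured 1200, 1900, 6500 and 6700 bp. Both ApcMin/+ values exceeded both wild-type values at 2 of the 10 clock genes, Per2 and Dbp, against 43% of the tested promoters, and they were below both at 0 of 10, against 2.33%. With 2 libraries against 2, an exact permutation test cannot give a p below 0.333, and no test was made of widths.

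**Figure D2:**
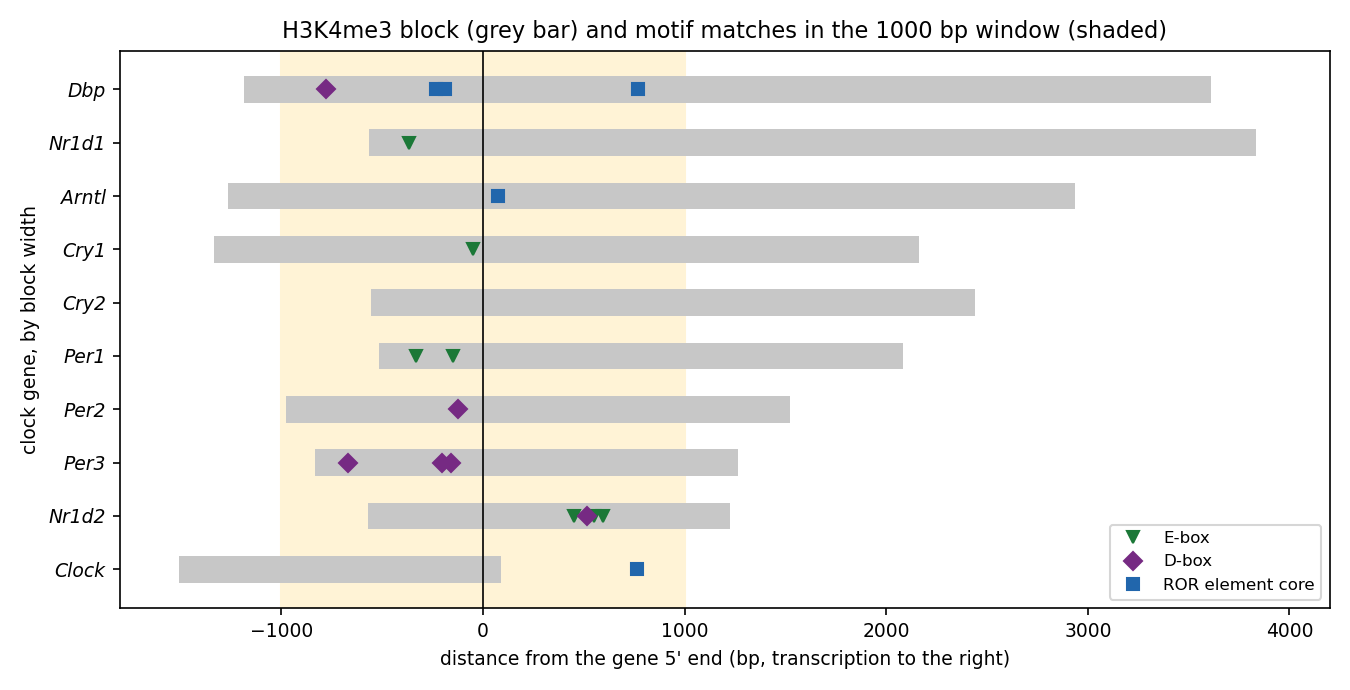
Grey bars show the H3K4me3 block of each clock gene in bp from the gene 5′ end, with transcription to the right, and symbols show motif matches within the shaded window of 1000 bp on each side. The blocks of Dbp, Nr1d1 and Arntl extend furthest into the gene, and that of Clock, 1600 bp wide, lies almost wholly upstream.

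Most promoters carried the mark mainly on the transcribed side of the start. Over the tested promoters a median of 68.2% of the signal lay downstream (interquartile range 51.4% to 81.8%), and Nr1d1 with 74.9% and Per1 with 72.2% lay above this median. The shares of Per1 in library order were 60.1%, 67.9%, 85.7% and 45.2%, so only ApcMin/+ replicate 1 exceeded 68.2%. Nr1d2 had 63.2%, Per2 57.3%, Cry2 57.1%, Arntl 56.4%, Cry1 50.7%, Dbp 47.4% and Per3 44.8%. In the mean of the 4 libraries Dbp and Per3 thus carried slightly more of the mark upstream of the start than downstream, but the libraries disagreed. In library order the downstream share was 36.2%, 64.5%, 48.9% and 47.8% at Dbp, and 36.2%, 61.2%, 36.1% and 62.4% at Per3. Clock had the lowest mean share of the 10 genes, with 13.5% downstream, and 40.3%, 14.4%, 8.21% and 11.5% in the libraries by themselves. Its maximum lay 150 bp upstream. The 5′ end of the antisense gene Gm7467 lies 84 bp upstream of Clock on the opposite strand, and Clock was the only clock gene with another annotated 5′ end in its window. CUT&RUN does not record strand, so the signal of this pair cannot be told apart. The window of Dbp is also overlapped by the gene Car11 and that of Per3 by the long gene Camta1, whose own start is 817211 bp away.

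In the mean of the 4 libraries the maximum of Nr1d1 lay 830 bp downstream and that of Arntl 470 bp downstream. At the start of Arntl itself the signal was 37.2% of its maximum. At Per3 the maximum of this mean lay 230 bp upstream, close to the pair of D-boxes printed above, and at Cry1 it lay 170 bp upstream. Single libraries could differ. In bins of 20 bp, Cry1 was highest 1350 bp downstream in wild-type replicate 1 and 530 bp downstream in wild-type replicate 2. Nr1d1 was highest 1490 bp downstream in ApcMin/+ replicate 2.

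**Figure D3:**
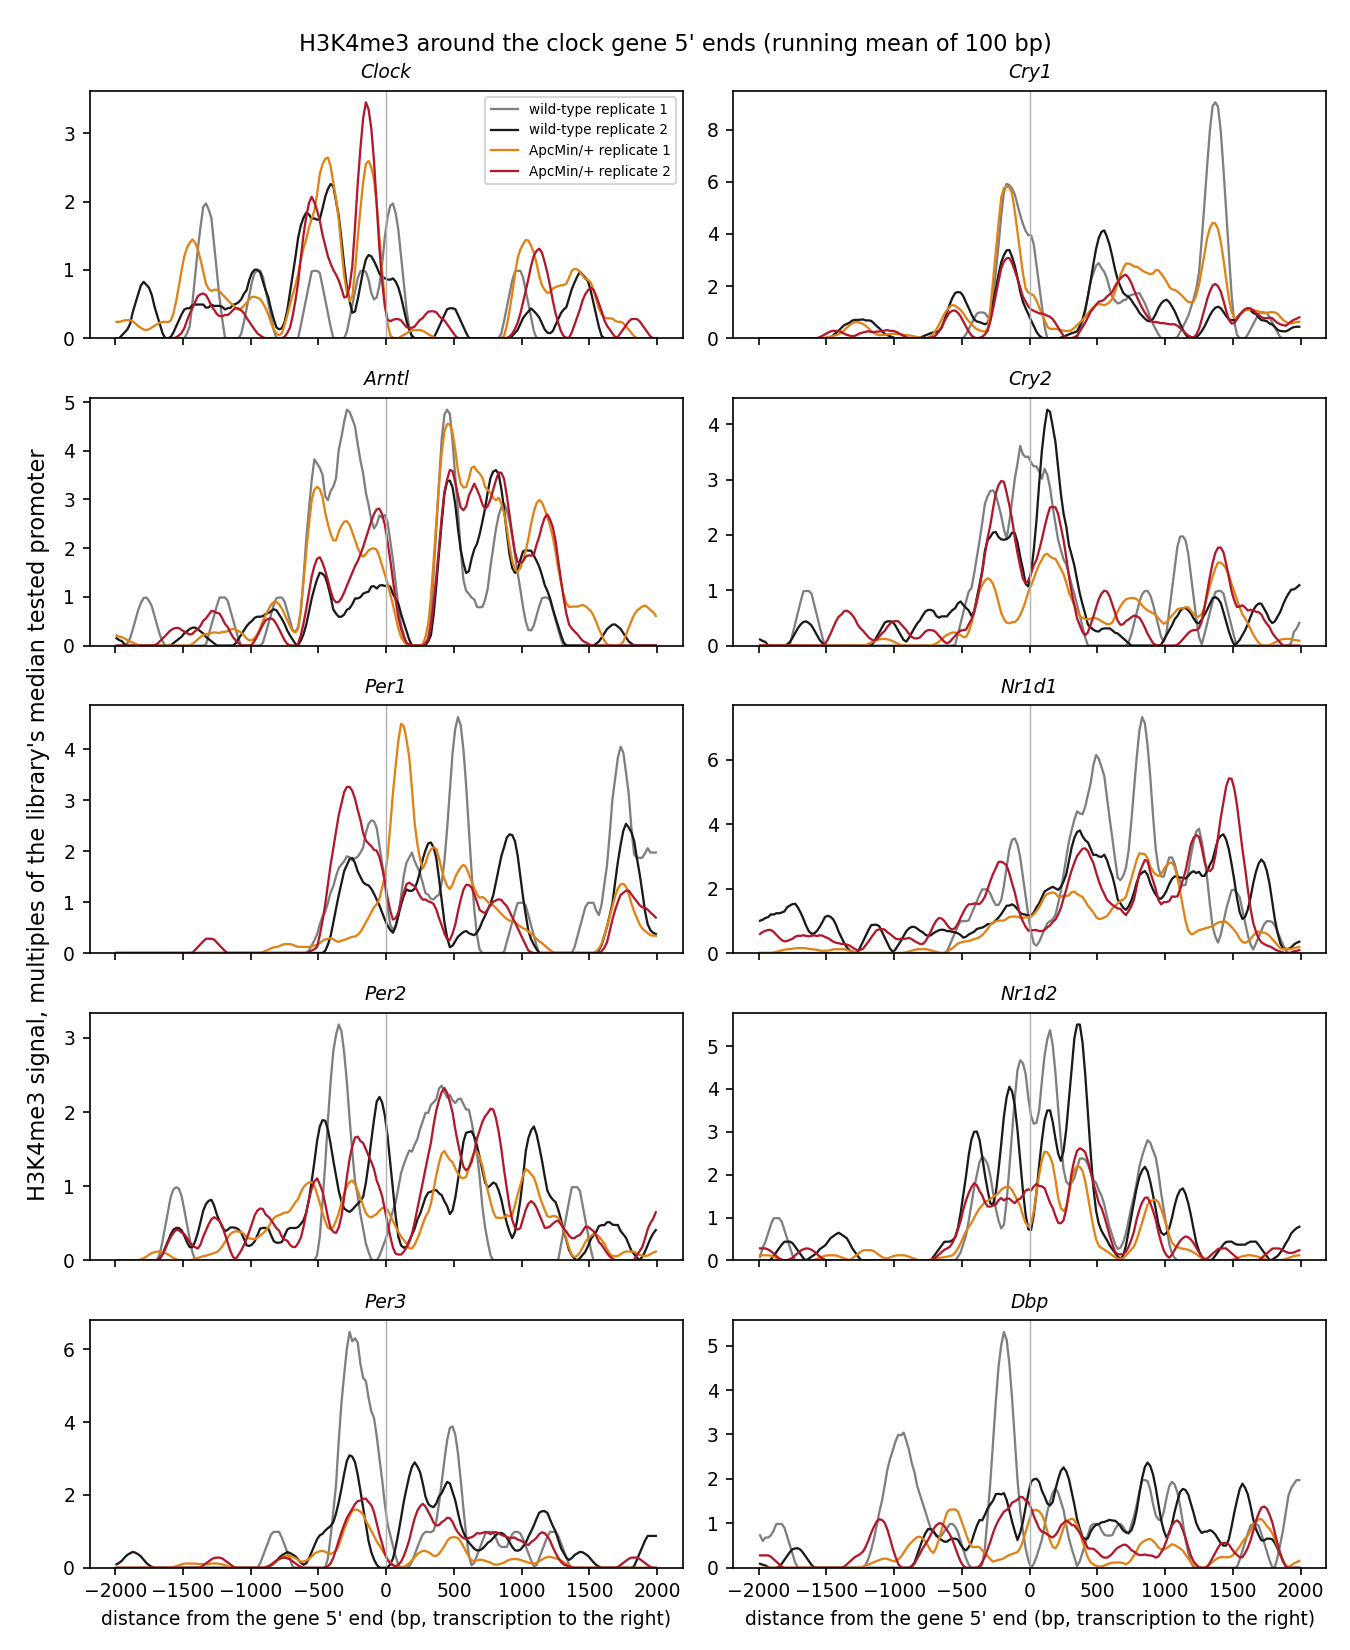
H3K4me3 from 2000 bp upstream to 2000 bp downstream of each clock gene 5′ end, as multiples of the median tested promoter of the same library (running mean of 100 bp). At Per3 and Dbp both wild-type lines (grey and black) reach above both ApcMin/+ lines (orange and red), and at Clock the mark lies on the upstream side.

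Some clock genes had marked chromatin away from the 5′ end. Per1 had a region of 2000 bp over the internal start printed above (chr11:69098601-69100600), and the mean signal within 1000 bp of that start was 4.95, 1.42, 5.42 and 2.59, against 5.07, 2.54, 13.8 and 4.19 at the gene 5′ end. Inside the 10 genes 29 further regions were found, and at 3 of them all 4 libraries exceeded 5 times their genome-wide mean. These were at chr7:113250501-113251000 in Arntl and at chr1:91442601-91444000 and chr1:91445901-91446700 in Per2. The longer Per2 region, 1400 bp wide and centred 16024 bp downstream of the start, had signals of 2.99, 2.53, 10.1 and 3.39. Nr1d1 had a region of 900 bp centred 8017 bp upstream (chr11:98782901-98783800) with signals of 7.56, 2.24, 8.42 and 6.46, to which no annotated start was nearer than that of Nr1d1.

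Whether the clock promoters differed between ApcMin/+ and wild-type mice was first compared on the deposited scale. The mean over both ApcMin/+ libraries was the higher at 8 of the 10 clock genes and the lower at Per3 and Dbp, whereas it was higher at 99.2% of the 9930 tested promoters. Both ApcMin/+ libraries lay above both wild-type libraries at Clock and Per2, which is 2 of 10 genes against 38.5% of all tested promoters, and below both at 0 of 10, against 0.161%. The wild-type mean of Clock was 1.965, under the minimum of 2, so Clock was tested only through its ApcMin/+ libraries. The filter favoured promoters of this kind, in the count and in the 38.5% alike, so this count is a description. The differences on the log2(signal + 1) scale ran from -0.14 ± 0.93 (SE) at Per3 to 1.03 ± 0.78 at Clock, with a median of 0.61 over the clock genes and of 0.85 over all tested promoters. None passed the test (limma with Benjamini-Hochberg adjustment, adjusted p from 0.683 to 0.956), and 0 of 9930 promoters (0%) were called, with 132 (1.33%) at an unadjusted p under 0.05. This comparison rests on ApcMin/+ replicate 1. Without it, the other ApcMin/+ library was higher at 4 of 10 clock genes, against 6606 of the 9930 tested promoters. The median difference was then -0.08 over the clock genes and 0.13 over all tested promoters. Without ApcMin/+ replicate 2, the differences at the clock genes ran from 0.20 at Per3 to 1.91 at Arntl.

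Since nearly all promoters were higher in ApcMin/+ replicate 1, each library was also centred on its median tested promoter, and a clock gene was then compared with the promoters of its own library. On this scale 7 of the 10 clock genes were lower in ApcMin/+, and 3 were higher, against 48.8% higher among all tested promoters. At 4 of 10, namely Per3, Dbp, Nr1d2 and Cry2, both ApcMin/+ libraries lay below both wild-type libraries, against 14.3% of all tested promoters. At 0 of 10 they lay above both, against 13.1%. The median difference over the clock genes was -0.24, against -0.01 over all. None of the 10 passed the test, while 12 of 9930 promoters (0.121%) did.

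Per3 had the lowest relative difference of the clock genes. Its level relative to the median promoter, in log2 units, was 0.51 and 0.06 in the wild type and -1.10 and -0.32 in ApcMin/+. The difference was -1.0 ± 0.32 (limma, unadjusted p = 0.0017, adjusted p = 0.608), the 40th lowest of 9930 promoters. Dbp stood at 0.36 and 0.10 in the wild type and at -0.79 and -0.57 in ApcMin/+, a difference of -0.91 ± 0.32 (limma, unadjusted p = 0.0043, adjusted p = 0.942). Nr1d2 stood at 0.64 and 0.59 against -0.12 and 0.03, a difference of -0.66 ± 0.28 (limma, unadjusted p = 0.019, adjusted p = 1). At all 3 genes the libraries of a genotype lay on the same side, yet the gap was not larger than the test across all promoters requires, and 137 promoters (1.38%) were lower at an unadjusted p under 0.05.

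At these 3 genes both ApcMin/+ libraries lay below both wild-type libraries. Omitting a library could thus change the size of the relative difference but not its sign. Without ApcMin/+ replicate 1 the difference was -0.61 at Per3, -0.80 at Dbp and -0.58 at Nr1d2. Over the omission of each library in turn it ran from -1.38 to -0.61, from -1.04 to -0.78 and from -0.74 to -0.58. Measured over the whole block instead of the window, it was -1.0, -0.78 and -0.68, where the Dbp block held 31, 69, 104 and 70 fragments in library order. None of these values passed the test.

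The other clock genes lay nearer to the median promoter. Cry2 differed by -0.44 ± 0.31 and Nr1d1 by -0.42 ± 0.29, and Nr1d1 overlapped between the groups, with relative levels of 1.04 and 0.51 in the wild type and of 0.19 and 0.52 in ApcMin/+. Per2, Cry1 and Per1 differed by -0.07 ± 0.31, -0.01 ± 0.28 and 0.06 ± 0.29. The activators were the highest, Arntl with 0.16 ± 0.29 and Clock with 0.17 ± 0.39, and both overlapped between the groups. The relative level of Arntl was 0.85 and 0.25 in the wild type and 0.88 and 0.55 in ApcMin/+, whereas that of Clock was -0.92 and -0.44 against -0.48 and -0.52.

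**Figure D4:**
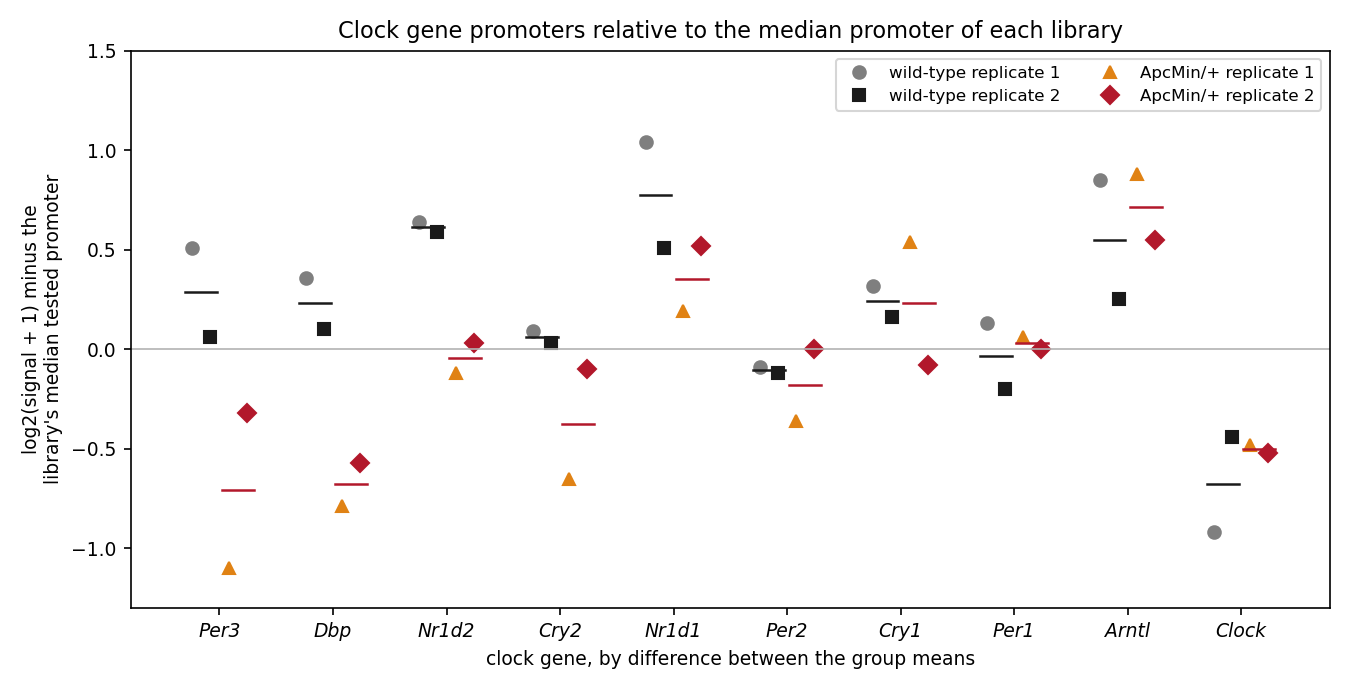
Level of each clock promoter in each library on the log2(signal + 1) scale, minus the median tested promoter of that library, with short lines at the group means. At Per3, Dbp, Nr1d2 and Cry2 both ApcMin/+ symbols lie below both wild-type symbols, and at Arntl and Clock they overlap.

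The rest of the pathway was described with a list of 27 genes, of which 19 passed the minimum signal. On the deposited scale the ApcMin/+ mean was higher at 18 of the 19, both ApcMin/+ libraries lay above both wild-type libraries at 5 (Arntl2, Btrc, Timeless, Noct and Sirt1, most of which are named here after their values were seen), against 38.5% of all tested promoters, and below both at Klf15, against 0.161%, and 0 were called. Both wild-type signals lay under the minimum of 2 at Arntl2 (1.05 and 0.835) and at Sirt1 (1.61 and 1.63). These genes passed it only through their ApcMin/+ libraries, so the filter favoured their place among those above both. Relative to the median promoter 7 of the 19 were higher and 12 lower. Both ApcMin/+ libraries lay below both wild-type libraries at 5 of 19, among them Ciart, Fbxl21, Klf15 and Tipin, the last of which is named here after its values were seen, against 14.3% of all tested promoters, and above both at 0 of 19, against 13.1%. None passed the test on this scale either, and the median was -0.05.

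Among the transcription factors of the loop, Npas2, a paralogue of Clock, had signals of 7.06, 2.68, 23.9 and 5.80 in library order and a relative difference of 0.40 ± 0.28. Ciart, a repressor of CLOCK and BMAL1 with a strong daily rhythm, had signals of 3.84, 3.08, 6.58 and 2.64 and a relative difference of -0.61 ± 0.35. At Ciart the relative levels were -0.19 and 0.01 in the wild type and -0.90 and -0.51 in ApcMin/+, so the groups did not overlap, as at Dbp and Nr1d2.

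Among outputs and regulators of stability, Klf15, a rhythmic regulator of amino acid metabolism, had signals of 3.80 and 2.23 in the wild type and of 0.946 and 2.0 in ApcMin/+. With a mean of 2.24 it lay close to the minimum signal of 2. Its relative difference was -1.56 ± 0.56 (limma, unadjusted p = 0.0056, adjusted p = 0.949), the 8th lowest of 9930. This value rested on ApcMin/+ replicate 1, since it was -0.52 without that library, and -2.60 (adjusted p = 0.00461) without ApcMin/+ replicate 2. Csnk1d, a kinase of PER, differed by -0.43 ± 0.28, and the ubiquitin ligase gene Fbxl21, whose product acts on CRY, by -0.45 ± 0.38. Timeless differed by 0.34 ± 0.35.

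**Figure D5:**
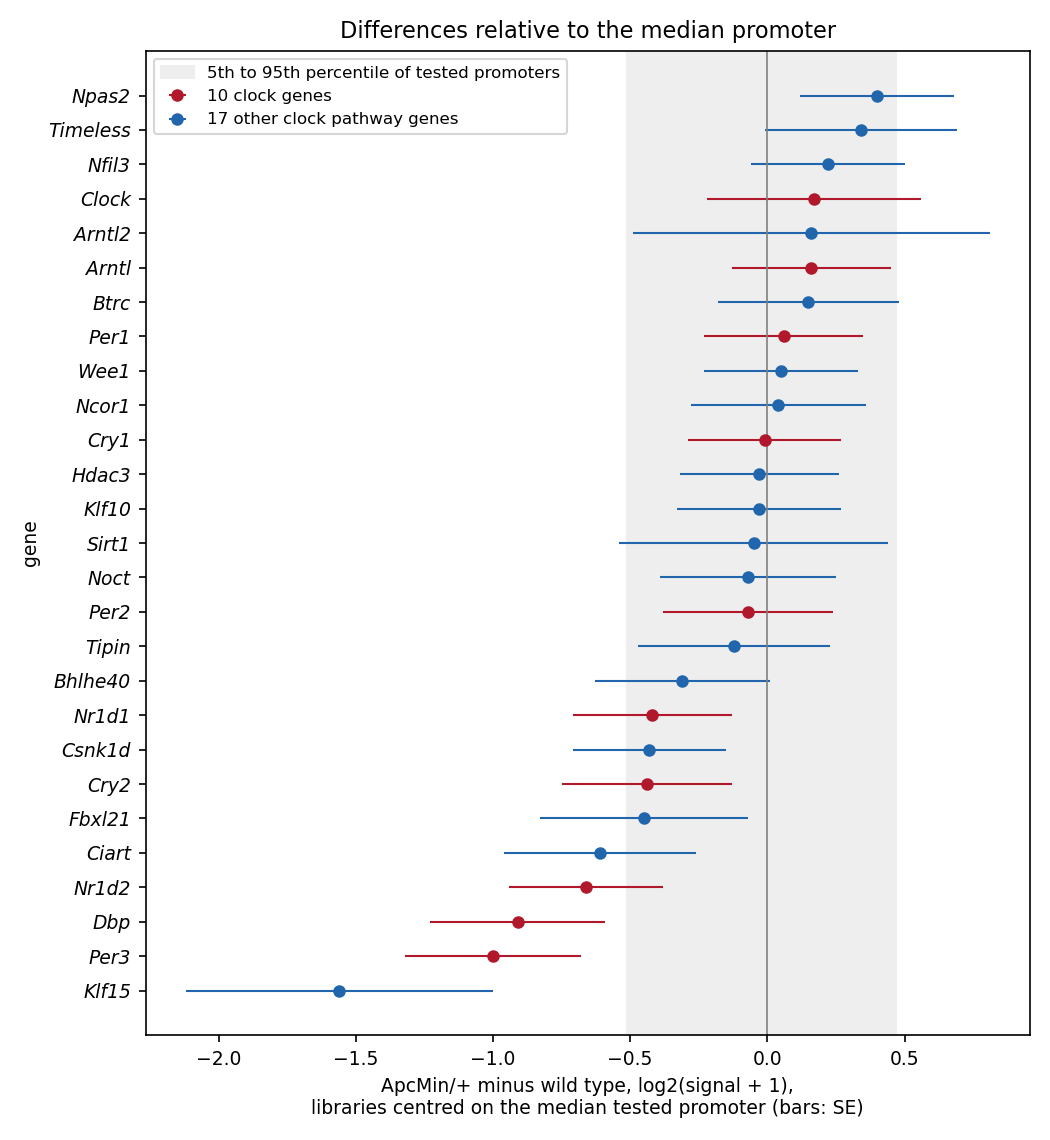
Differences between ApcMin/+ and wild type relative to the median promoter on the log2(signal + 1) scale, with SE, for the 10 clock genes (red) and 17 other pathway genes (blue), and the 5th to 95th percentile of the tested promoters shaded (-0.51 to 0.47). Klf15, Per3, Dbp, Nr1d2 and Ciart lie below the shaded band and no gene lies above it.

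The 8 pathway genes below the minimum signal were Rora, Rorb, Tef, Hlf, Bhlhe41, Csnk1e, Usp2 and Nampt, with means from 0.525 to 1.93 at the gene 5′ end. For 3 of them another annotated start reached the minimum. At such starts the mean was 7.40 at Tef, a relative of Dbp, 6.46 at Usp2 and 6.08 at Nampt, the NAD salvage enzyme, and signals at Tef were 4.53, 4.68, 15.5 and 4.91 in library order. With the highest start taken for every gene, 22 pathway genes could be tested, and relative to the median promoter 8 were higher, 14 lower and 0 called.

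The promoters whose pattern over the 4 libraries was most like the mean of the clock genes were those of Sfxn3, Zfp775 and Cenpb, with root mean square differences of 0.048, 0.052 and 0.054 in log2(signal + 1).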

How the data were processed

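H3K4me3 CUT&RUN tracks of villi cells from wild-type and ApcMin/+ mice were analysed, with 2 libraries per genotype. Per the study's methods, trimmed read pairs were aligned to mm10 with Bowtie2, duplicates were removed with Picard, reads with a MAPQ under 10 were dropped and fragments of 150 to 500 bp were kept. The deposited values are signal, namely HOMER coverage per base that the authors scaled to 10000000 tags and corrected for fragment length, per library and without subtracting the no-antibody control. The number of fragments at a promoter is its total signal divided by the signal that 1 tag adds to the track, and intervals are 95% exact Poisson intervals that cover counting error only. The other libraries of the series were not analysed here.

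Tests covered promoters whose mean signal reached 2, and were made with limma 3.58.1 (R 4.3.3, trend, empirical Bayes, Benjamini-Hochberg, threshold 0.05) on log2(signal + 1), a scale that understates changes at low signal. Blocks were called in 100 bp bins, joined over 500 bp, with a minimum of 300 bp. The tracks were read in Python 3.11.15 with pandas 2.3.3 and numpy 2.4.6, and intervals come from scipy 1.17.1. Sequences are from RefSeq and GRCm38.p6, and promoters were found for 9 of 10 genes (not Per2). The members, pathway list and motifs were chosen with earlier results of these data known. Genes named were all members, the 8 pathway genes with the largest relative differences (2 of which are counted but not reported here) and those past the threshold in either fit, genes starting in a member's window and the 3 most alike promoters. Alternatives were the scaling, window, start, pseudocount, filter, replicate block and the omission of each library. The methods name 2 mice per genotype at this age, but the sources used here do not say that each library is a separate mouse, so p-values measure the spread between these libraries, which may be technical.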

Additional observations from a re-analysis of the deposited data

How the results depend on the processing

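No clock gene passed the test under any alternative that kept all 4 libraries. Per3, Dbp, Nr1d2, Cry2 and Nr1d1 were below 0 in 12 of 12 fits relative to the median promoter. These fits reuse the same 4 libraries, and the alternatives other than the omission of a library were chosen after seeing the data. At Per3, Dbp, Nr1d2 and Cry2 the groups did not overlap, so omitting a library or adding the replicate block could not change the sign. Centring subtracts the same value from every promoter of a library, so it moved the differences of all promoters by the same amount. The cause was not tested for any other change below. Against the deposited scale, centring and quantile normalization reversed Per2 (-0.07 and -0.03), Cry1 (-0.01 and -0.09), Cry2 (-0.44 and -0.37), Nr1d1 (-0.42 and -0.37), Nr1d2 (-0.66 and -0.67), Ciart (-0.61 and -0.60), Fbxl21 (-0.45 and -0.44), Csnk1d (-0.43 and -0.35) and the median of the clock genes (-0.24 and -0.23). They gave 12 and 2 called promoters, 3 and 3 clock genes with a higher mean, 0 and 0 above both, 4 and 4 below both, and for the other pathway genes 7 and 8, 0 and 0, and 5 and 5. Scaling to background reversed Per3 (0.13) and Dbp (0.22), and Dbp was also reversed with windows of 500 and 2000 bp (0.07 and 0.01) and the highest start (0.01). Clock genes above both wild-type libraries numbered 1 with scaling to background, the 500 bp window and a mean signal of at least 5. Of the other pathway genes 12 lay above both with the 500 bp window, 8 with the highest start and 1 with a mean of at least 5, which left 10 with a higher mean and 0 below both, as did the 2000 bp window. Relative to the median promoter, Per1 was reversed with the 2000 bp window (-0.19) and over the block (-0.23), and Cry1 with the 2000 bp window (0.01). Called promoters then numbered 0 with 500 bp, 22 with 2000 bp and 4 over the block, clock genes above both 1 with 500 bp and 1 with the highest start, other pathway genes above both 2, 1, 1, 1 and 3 with 500 bp, 2000 bp, the highest start, a pseudocount of 0.1 and the block, and below both 3 with 500 bp and 8 over the block. The median block width over the 10 clock genes, 2800 bp, became 1900 bp at 10 times the genome-wide mean, and 1850 and 3650 bp on the tracks of wild-type replicate 2 and ApcMin/+ replicate 1 alone.

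Over the omission of each library in turn, differences on the deposited scale ran from -0.59 to 0.31 at Per3, from -0.20 to 1.88 at Cry1, from -0.03 to 0.87 at Cry2, from -0.13 to 1.00 at Nr1d1, from -0.46 to 0.84 at Nr1d2, from -0.67 to 0.56 at Dbp, from -0.29 to 0.77 at Ciart, from -0.16 to 0.97 at Fbxl21, from -0.08 to 0.93 at Csnk1d and from -0.08 to 1.16 for the median of the clock genes. Called promoters ran from 0 to 6479, clock genes with a higher mean from 4 to 10, above both from 2 to 9 and below both from 0 to 3, and other pathway genes above both from 5 to 18 and below both from 1 to 4. With 1 library left in a group, counts above both and below both can only stay or rise, so they are descriptions. Without ApcMin/+ replicate 1, 905 of 9930 tested promoters lay below both on the deposited scale, against 16 with all 4 libraries. Above both lay 3834, against 3820. In the fits relative to the median promoter, the omissions gave 2864 to 3330 above both, against 1298 with all 4 libraries. Below both they gave 2980 to 3456, against 1418. Relative to the median promoter, differences ran from -0.07 to 0.41 at Clock, from -0.14 to 0.46 at Arntl, from -0.10 to 0.23 at Per1, from -0.25 to 0.11 at Per2, from -0.32 to 0.30 at Cry1 and from -0.08 to 0.76 at Timeless. Called promoters ran from 0 to 30, clock genes with a higher mean from 1 to 4 and above both from 1 to 2, and other pathway genes above both from 1 to 6 and below both from 8 to 9.

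Whether same-numbered libraries share an experiment or only a number is not stated in the sources used here. In both genotypes replicate 1 had fewer tags and more of its signal in enriched regions (22.6% against 11.9%, and 43.3% against 16.4%). The deviations of same-numbered libraries from the group means had a correlation of 0.196 across 9930 promoters. This value cannot show a shift shared by all promoters of a library. With the replicate number as a block 1 promoter was called on the deposited scale, not a clock gene. Adjusted p-values of this limma fit were 0.349 to 0.999 at the clock genes relative to the median promoter.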
